A study of Mesocricetus auratus with 8 samples.

Results

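The genes described here are the 10 members of myostatin and activin signalling named by their symbols: the ligands Mstn, Gdf11 and Inhba, the secreted antagonists Fst and Fstl3, the type II receptors Acvr2a and Acvr2b, the type I receptors Acvr1b and Tgfbr1, and the inhibitory SMAD Smad7. Each symbol had 1 row among the 17590 genes with values in the deposited table, and all 10 were found. RNA was sequenced from primary satellite cells (SCs), the stem cells of skeletal muscle, isolated from the hindlimb of male, sexually mature, wild-type (WT) Slc:Syrian hamsters and enriched by preplating. All cultures spent 48 h at 37°C and then 24 h at 37°C in growth medium (GM) with 100 mM HEPES. Control libraries (n = 4) were taken at that point, and cold libraries (n = 4) after a further 24 h at 4°C in the same medium. No library kept at 37°C for that further day was analysed here, so cold and the added day in unchanged medium cannot be told apart. The titles place each control on day 3, but the treatment labels of control replicates 1 to 4 read 3, 4, 5 and 6 days of culture. The study calls the libraries biological replicates, and the sources used here do not say whether each came from a different animal.

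Myostatin (Mstn), GDF11 and activin A (a dimer of the Inhba product) are secreted ligands of the TGF-β superfamily. They bind the type II receptors ACVR2A and ACVR2B, which activate the type I receptors ALK4 (Acvr1b) and ALK5 (Tgfbr1), and these phosphorylate SMAD2 and SMAD3. Follistatin (Fst) and FSTL3 trap the ligands outside the cell, and SMAD7 blocks the activated type I receptor inside it. In muscle, myostatin is best known as a brake on growth, and both myostatin and activin A restrain myoblast differentiation in culture.

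In the cold libraries the Mstn transcript was at about 0.3 times its control level, lower in each of the 4 replicate pairs, a difference that passed edgeR's test with the replicate number as a block and narrowly missed it without. The other 8 members that passed the filter on low counts had log2 fold changes between −0.09 and 0.19, and none of them passed the test. Among these, Fst, Inhba, Fstl3, Gdf11 and Smad7 differed by replicate number, over both temperatures. The last member, Acvr2b, did not pass that filter.

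Levels are given as TPM, a deposited measure of transcript abundance that sums to the same total in each library, corrects for transcript length and so lets genes be compared with each other. Tests used edgeR's quasi-likelihood fit on the read counts of all 12506 genes that passed the filter on low counts, with p-values adjusted over all of them by the Benjamini-Hochberg method. A differentially expressed gene (DEG) was one with an adjusted p under 0.05 whose log2 fold change was also 1 or more in size, the thresholds that define DEGs in the source paper. The libraries held 16530747 to 18533801 counts each. Libraries with the same replicate number deviated together from their group means (correlations across genes of 0.61 to 0.66). Replicates 1 and 2 resembled each other nearly as much, as did replicates 3 and 4 (0.43 to 0.59 across numbers), and the 2 sets deviated oppositely (−0.61 to −0.55). For that reason, values from an edgeR model that also carries the replicate number as a term (the replicate block) are given where they change a call.

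The cells carried SC markers. The 10 SC and myoblast markers (Pax7, Myf5, Myod1 and others) summed to 2282 to 2711 TPM in the control and 2186 to 2568 TPM in the cold libraries, each marker averaging at least 1 TPM, and in edgeR 0 of them passed an adjusted p of 0.05 without the block, while 3 fell and 1 rose with it (4.07% and 1.26% of all genes). Of the 6 leukocyte markers, which summed to 17.6 to 52.8 TPM, Ptprc, Adgre1, Itgam and Laptm5 averaged under 1 TPM, while Cd14 averaged 29.3 TPM and Csf1r 3.29 TPM. The endothelial markers Pecam1, Kdr, Tek, Vwf and Tie1 also averaged under 1 TPM, and Cdh5 averaged 1.58 TPM. The 6 endothelial markers summed to 2.06 to 4.05 TPM, and the 5 pericyte and smooth muscle markers to 29.6 to 34.2 TPM. Fibroblast markers were present, with a sum of 1111 to 1563 TPM over the 8 libraries, to which Thy1 gave the most, and Pi16 was at 0. By staining, the study reports Pax7 or MyoD in the great majority of the hamster cells it isolated. The RNA is from whole cultures, so fewer cells of a type and less RNA per cell cannot be told apart.

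At 37°C the antagonist Fst was the most abundant member, with 139 ± 50.3 TPM (SD, n = 4), and over all 8 libraries its mean exceeded that of 91.5% of the genes tested. Inhba followed with 44.4 ± 12.7 TPM. Gdf11 (14.4 ± 1.51 TPM), Tgfbr1 (14.1 ± 0.17 TPM), Mstn (13.7 ± 3.08 TPM) and Smad7 (13.3 ± 3.15 TPM) came next, and neighbours in this order overlapped in their control values. Acvr2a and Fstl3 lay at 7.22 ± 0.448 and 5.65 ± 2.004 TPM and also overlapped each other, followed by Acvr1b at 2.82 ± 0.312 TPM and Acvr2b at 0.532 ± 0.368 TPM. In the cold libraries the range of Mstn lay below those of Tgfbr1 and Smad7, its neighbours at 37°C.

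**Figure D1:**
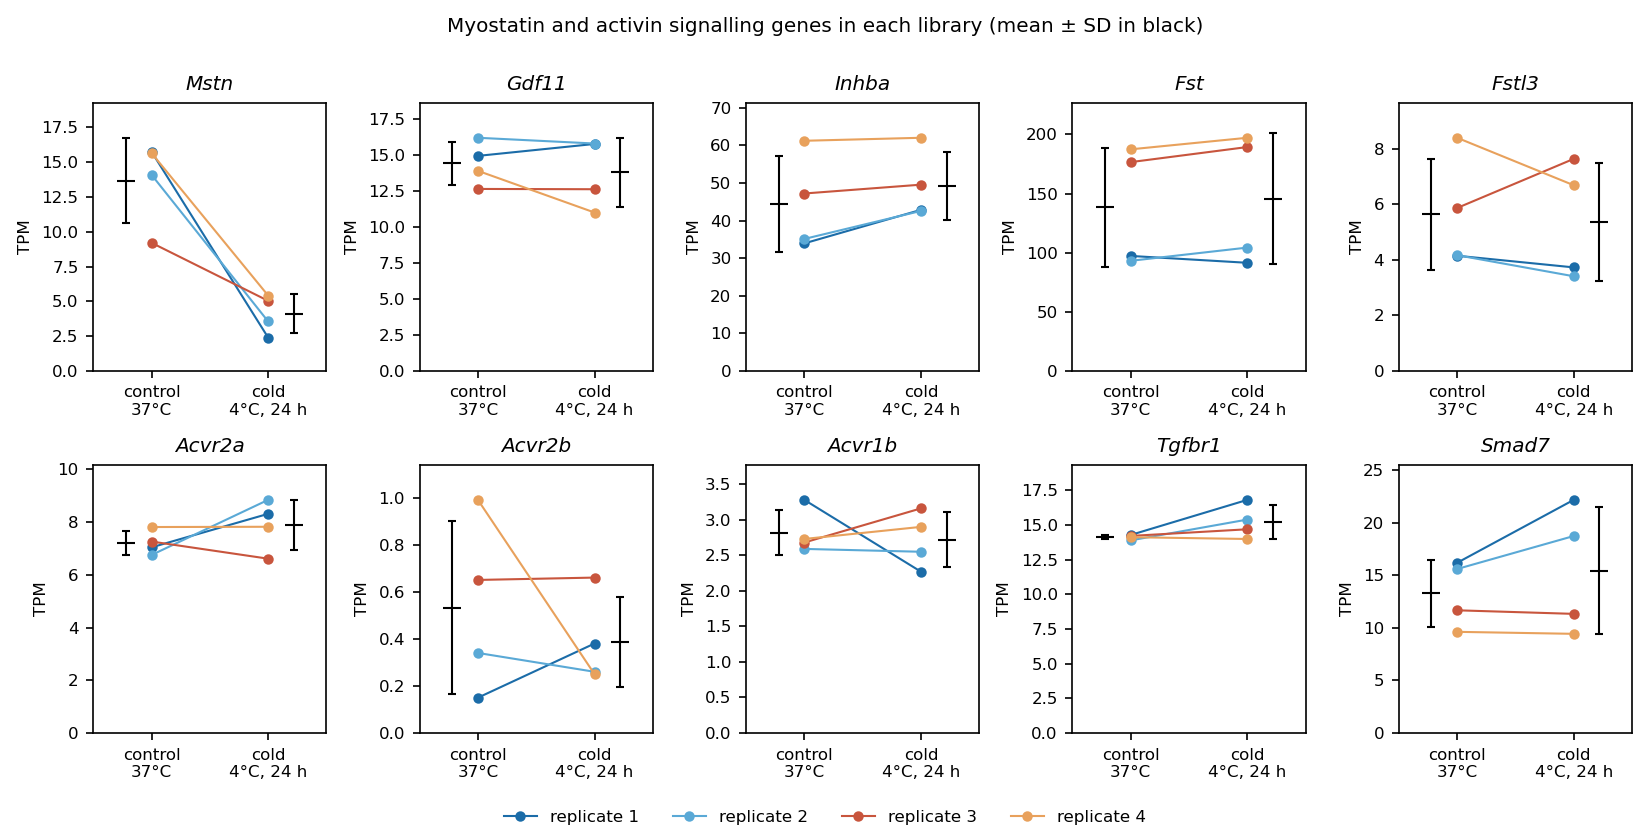
Level of each of the 10 members in TPM (vertical axis, from 0) in the control and cold libraries, with a line joining libraries of the same replicate number and the mean ± SD (n = 4) of each group in black. Mstn falls from 9.21 to 15.76 TPM in the control libraries to 2.40 to 5.42 TPM in the cold libraries, while the lines of the other members are mostly flat and, for Fst, Inhba, Fstl3 and Smad7, separate by replicate number.

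Mstn, the ligand that limits muscle size, was lower in the cold libraries. In control replicates 1 to 4 it stood at 15.76, 14.10, 9.21 and 15.66 TPM, and in cold replicates 1 to 4 at 2.40, 3.56, 5.04 and 5.42 TPM. The highest cold library was below the lowest control library, and the drop was steepest in replicate 1 and shallowest in replicate 3. Mstn was the only member whose groups did not overlap in this direction, which held for 2.41% of all genes tested, and it was lower in 4 of 4 pairs, which held for 10.5%. No member was higher in every cold library than in every control library, against 2.27% of all genes. These values rest on 268 to 489 counts per control and 78 to 167 counts per cold library.

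The fitted log2 fold change of Mstn was −1.76 (SE 0.26, 95% interval −2.35 to −1.18), a level 3.39 times lower. Its adjusted p was 0.056 in the edgeR fit without the block, so Mstn was not a DEG there. In that fit 0 of the 9 members tested passed an adjusted p of 0.05, and 1, Mstn, had an unadjusted p under 0.05. DESeq2, another count test, called Mstn alone among the members, with an adjusted p of 1.47e-08, against 68 of 14394 genes (0.472%) that it called lower. The edgeR fit without the block passed fewer: 5 of 12506 genes (0.0400%) were DEGs lower in the cold, and 9 (0.0720%) were lower by the adjusted p alone. With the replicate number as a block, the log2 fold change was −1.76 (SE 0.17, 95% interval −2.11 to −1.40) and the adjusted p was 9.07e-07. In that fit Mstn was the 1 member of 9 that was a DEG, against 0.808% of all genes lower in the cold by the same rule. It was also the 1 member past the adjusted p alone in either direction, against 4.07% of all genes lower and 1.26% higher. The study, by the same thresholds, names Mstn among its DEGs from these same libraries, all of them lower in the cold. The fall of Mstn here is therefore not independent evidence.

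The markers of differentiating myocytes were lower in the cold as well. Their sum, to which Actc1 gave the most in each library, was 5724 to 10930 TPM in the control and 3673 to 6339 TPM in the cold libraries, lower in 4 of 4 pairs, and 14 of 14 markers (Myog, Myh3, Acta1 and others) were lower at an adjusted p under 0.05 in edgeR with the block, against 4.07% of all genes. Without the block 1 of 14, Myl4, passed (adjusted p = 0.0301). The study names Myl4, Acta1, Myh3, Myl1, Tnnt1, Mef2c and Smyd1 among its DEGs from these same libraries. The fall of those markers here is therefore not independent evidence. The part of the myocyte markers in the fall of Mstn was not tested.

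Gdf11, the closest relative of Mstn, did not pass the test. It measured 14.96, 16.22, 12.66 and 13.92 TPM in control replicates 1 to 4 and 15.79, 15.82, 12.64 and 11.02 TPM in the cold replicates, and the groups overlapped. Its log2 fold change was −0.09, with a 95% interval of −0.40 to 0.23 without and −0.21 to 0.03 with the block. Mstn and Gdf11 were present at similar levels at 37°C, with Mstn over Gdf11 TPM ratios of 0.727 to 1.13. After cold exposure the ratio was 0.152 to 0.492.

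Inhba, which encodes the subunit of activin A, stood at 33.94, 35.12, 47.21 and 61.24 TPM in control replicates 1 to 4 and at 42.86, 42.57, 49.56 and 62.04 TPM in the cold replicates. It was higher in 4 of 4 pairs, as were 12.8% of all genes, but the groups overlapped and the differences in replicates 3 and 4 were slight. The log2 fold change was 0.14 (95% interval −0.26 to 0.54) without the block and 0.15 (0.05 to 0.25) with it, where the edgeR p was 0.0051 before and 0.0773 after adjustment. Without replicate 4 the blocked adjusted p was 0.0291 at a log2 fold change of 0.19, and 7.44% of all genes passed in that fit.

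The make-up of the 3 ligand transcripts differed with Mstn. Mstn accounted for 24.4, 21.5, 13.3 and 17.2% of their summed TPM in control replicates 1 to 4 and for 3.93, 5.75, 7.50 and 6.91% in the cold replicates. Inhba made up 52.5 to 68.3% of the sum in the control and 68.7 to 79.1% in the cold libraries. The sum itself was 64.7 to 90.8 TPM in the control and 61.1 to 78.5 TPM in the cold libraries and overlapped between the groups. These shares compare transcripts, not secreted proteins, and were not tested.

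**Figure D2:**
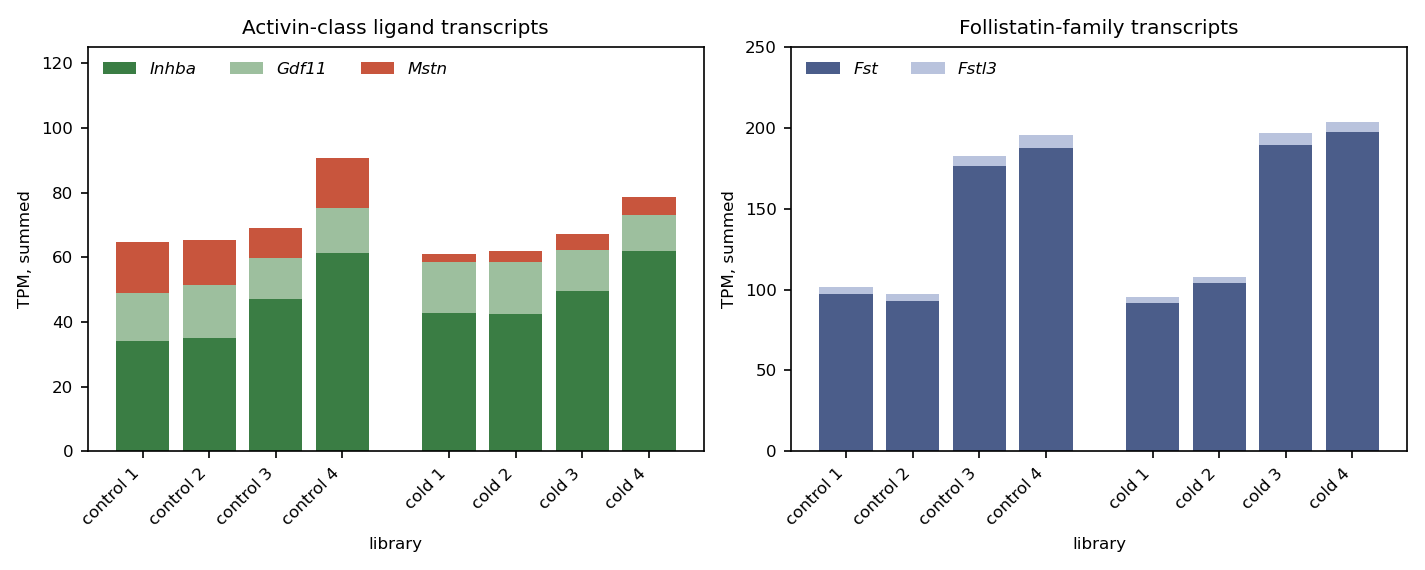
Summed TPM (vertical axes, from 0) of the ligand transcripts Inhba, Gdf11 and Mstn (left) and of the antagonist transcripts Fst and Fstl3 (right), with 1 bar per library. The Mstn segment shrinks from 13.3 to 24.4% of the ligand sum in the control libraries to 3.93 to 7.50% in the cold libraries, and the Fst bars are 91.4 to 104 TPM in replicates 1 and 2 and 177 to 197 TPM in replicates 3 and 4 at both temperatures.

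Fst, which encodes the broad ligand trap follistatin, differed with the replicate number and not detectably with temperature. It stood at 97.22, 93.10, 176.55 and 187.36 TPM in control replicates 1 to 4 and at 91.42, 104.28, 189.30 and 197.13 TPM in the cold replicates. Each library of replicates 3 and 4 was above each library of replicates 1 and 2, in both groups. The log2 fold change of cold against control was 0.06 (95% interval −0.60 to 0.73) without the block and 0.05 (−0.05 to 0.14) with it. The Fst over Inhba TPM ratio spanned 2.65 to 3.74 in the control and 2.13 to 3.82 in the cold libraries. The Fst over Mstn ratio was 6.17, 6.603, 19.2 and 11.96 in control replicates 1 to 4 and 38.1, 29.3, 37.6 and 36.4 in the cold replicates, with no overlap.

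Fstl3, a follistatin relative that also binds activin and myostatin, was far less abundant, with Fst over Fstl3 TPM ratios of 22.3 to 30.6. It stood at 4.15, 4.17, 5.87 and 8.40 TPM in control replicates 1 to 4 and at 3.73, 3.41, 7.64 and 6.69 TPM in the cold replicates. The groups overlapped, and as for Fst the higher values were in replicates 3 and 4. Its log2 fold change was −0.08 (95% interval −0.76 to 0.59), or −0.09 (−0.36 to 0.17) with the block.

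The receptors showed no difference that passed the test. Acvr2a, a type II receptor for both myostatin and activin, stood at 7.04, 6.75, 7.26 and 7.81 TPM in control replicates 1 to 4 and 8.31, 8.84, 6.61 and 7.82 TPM in the cold replicates. The groups overlapped, and the log2 fold change was 0.11 (95% interval −0.10 to 0.33, or −0.04 to 0.25 with the block). Acvr2b, the other type II receptor, had 3 to 20 counts and 0.15 to 0.99 TPM per control library and 5 to 13 counts and 0.25 to 0.66 TPM per cold library. It did not pass the filter on low counts, and at this depth no difference was detectable: with no filter beyond 1 count its log2 fold change was −0.46 (SE 0.53) and the edgeR adjusted p was 0.976.

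Tgfbr1, which encodes the receptor ALK5 shared by TGF-β, GDF11 and myostatin, had the tightest control values of the members. They were 14.28, 13.89, 14.21 and 14.12 TPM, against 16.81, 15.39, 14.69 and 13.99 TPM in the cold replicates. The cold library was above its control in replicates 1 to 3 and below it in replicate 4. The log2 fold change was 0.09 (95% interval −0.07 to 0.24, or −0.01 to 0.18 with the block). Acvr1b, which encodes the activin receptor ALK4, stood at 3.28, 2.59, 2.68 and 2.73 TPM in control and 2.27, 2.55, 3.16 and 2.90 TPM in cold replicates 1 to 4. These libraries overlapped, and the log2 fold change was −0.07 (95% interval −0.41 to 0.26, or −0.37 to 0.22 with the block).

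Smad7, the inhibitory SMAD that the pathway itself induces, stood at 16.20, 15.61, 11.68 and 9.63 TPM in control replicates 1 to 4 and at 22.19, 18.75, 11.34 and 9.44 TPM in the cold replicates. The cold values were higher in replicates 1 and 2 and slightly lower in replicates 3 and 4. The log2 fold change was 0.19 (95% interval −0.47 to 0.85) without the block and 0.17 (0.02 to 0.32) with it, where the edgeR p was 0.0323 before and 0.219 after adjustment. In replicates 1 and 2 alone it was 0.31 with an adjusted p of 0.0155, and in replicates 3 and 4 alone −0.02 with an adjusted p of 0.997. Of all genes, 11.6% passed the adjusted p in the first of these edgeR fits and 0.397% in the second. Whether these pairs of replicates differed in the response of Smad7 was not tested.

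**Figure D3:**
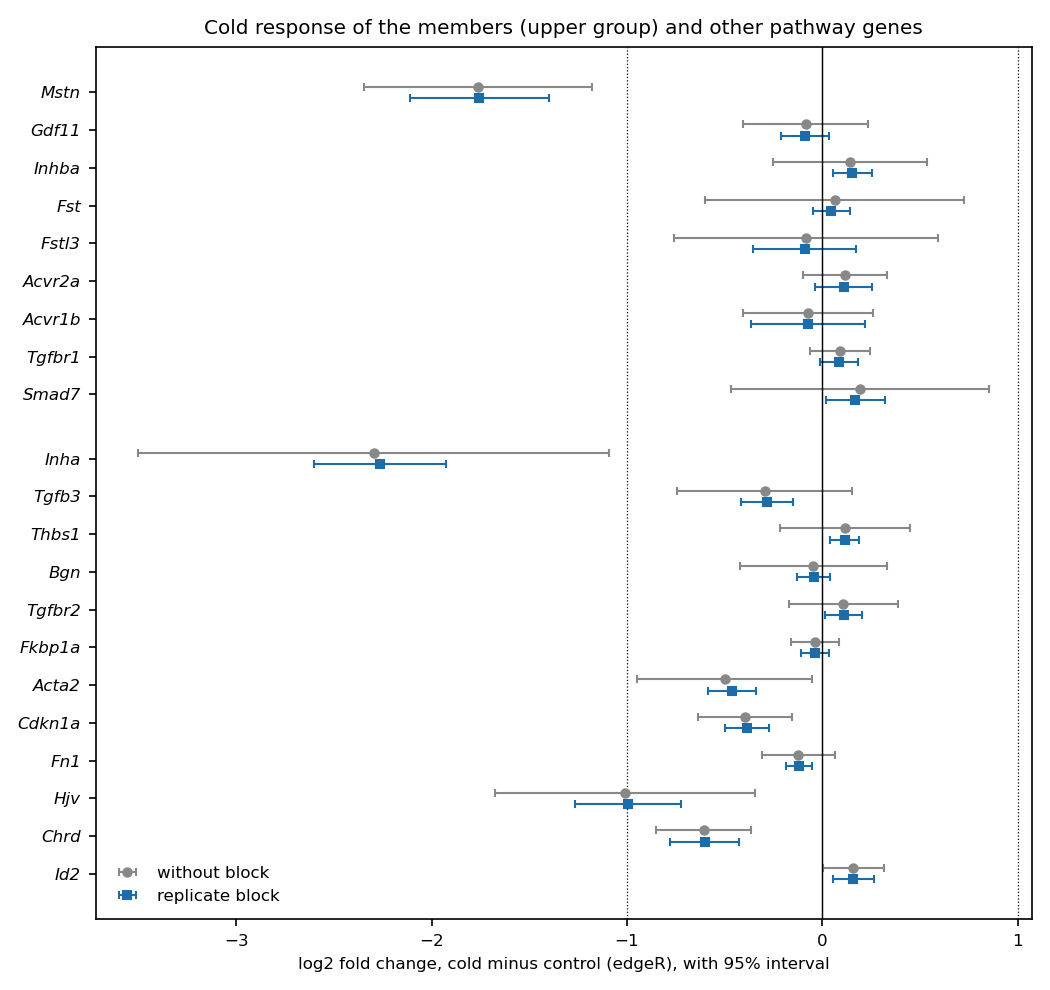
Fitted log2 fold change of cold against control (horizontal axis, edgeR, bars show the 95% interval) for the 9 members tested and for the other named genes of the pathway, without the block in grey and with the replicate block in blue. Dotted lines mark a log2 fold change of 1 in either direction. Mstn and Inha lie beyond −1 with both intervals, and the intervals of the other 8 members stay within the dotted lines.

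For the 8 tested members other than Mstn, the 95% intervals lay between −0.76 and 0.85 without the block and between −0.37 and 0.32 with it. A log2 fold change of 1 was outside each of these intervals, and smaller changes lay within them. The upper bound for Mstn, −1.18 without the block, lay below the lowest bound of these 8 members.

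The replicate number itself was a source of difference for several members. In the test of the replicate term of the blocked edgeR fit, 5 of the 9 members passed an adjusted p of 0.05, against 35.4% of all genes tested. They were Fst (adjusted p = 3.23e-10), Smad7 (2.90e-07), Inhba (1.17e-06), Gdf11 (0.000298) and Fstl3 (0.000443). Fst, Inhba and Fstl3 were higher in replicates 3 and 4, with for example 47.2 to 62.0 against 33.9 to 42.9 TPM for Inhba over both groups. Gdf11 and Smad7 were lower there, with 9.44 to 11.7 against 15.6 to 22.2 TPM for Smad7. Mstn (0.379), Acvr2a (0.213), Acvr1b (0.954) and Tgfbr1 (0.0615) did not pass.

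Marker levels moved with the replicate number as well. The fibroblast markers summed to 1111 to 1189 TPM in replicates 1 and 2 and 1314 to 1563 TPM in replicates 3 and 4. The SC and myoblast markers summed to 2407 to 2711 TPM in replicates 1 and 2 and 2186 to 2460 TPM in replicates 3 and 4. The myocyte markers summed to 5470 to 10930 TPM in replicates 1 and 2 and 3673 to 6254 TPM in replicates 3 and 4. The leukocyte markers, of which Cd14 gave most of the sum, reached 17.6 to 21.5 and 39.9 to 52.8 TPM. The part of these markers in the levels of Fst, Inhba, Fstl3, Gdf11 and Smad7 was not tested.

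**Figure D4:**
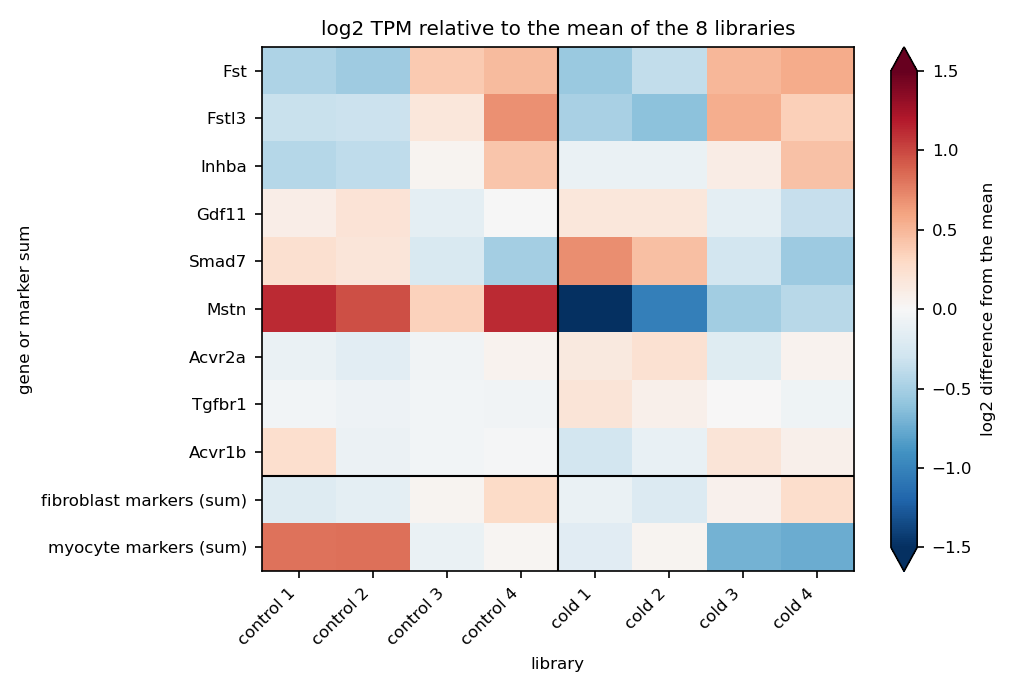
Log2 TPM of the 9 members tested, and of the summed fibroblast and myocyte markers, in each library (columns) as the difference from the gene's mean over the 8 libraries (colour, log2 units). Mstn changes colour between control and cold, while Fst, Fstl3 and Inhba are high in replicates 3 and 4 of both groups and Smad7 is high in replicates 1 and 2.

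The rest of the pathway was read from 6 lists with 109 genes, of which 103 were in the table and 90 were tested. Without the block, 0 of the 90 passed an adjusted p of 0.05 in edgeR (the unadjusted edgeR p was under 0.05 for 7 lower and 3 higher genes, and for 516 lower and 322 higher of all 12506). DESeq2 passed 2, Inha and Chrd, against 0.924% of all genes lower, and called Inha a DEG, against 0.472%. With the block, 7 fell and 0 rose by the adjusted p alone, against 4.07% of all genes lower and 1.26% higher, and 1, Inha, was a DEG, against 0.808% of all genes. The median log2 fold change of the 90 genes was 0.006, beside 0.007 over all 12506 genes.

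Among ligands and ligand processing, 2 of 16 tested genes fell with the block, against 4.07% of all genes. Inha, the inhibin α subunit, which pairs with the product of Inhba to form inhibin, an antagonist of activin, stood at 19.49, 23.56, 6.58 and 6.09 TPM in control replicates 1 to 4 and at 2.80, 4.97, 2.01 and 1.99 TPM in the cold replicates. All cold values were below all control values, as for 2.41% of all genes, although the control values of replicates 3 and 4 were themselves low. The log2 fold change was −2.26 (SE 0.16) and the adjusted p 1.50e-08 in edgeR with the block, against −2.30 and 0.241 without it. The Inhba over Inha TPM ratio was 1.74, 1.49, 7.17 and 10.1 in control replicates 1 to 4 and 15.3, 8.57, 24.7 and 31.2 in the cold replicates, higher in 4 of 4 pairs.

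Tgfb3, the ligand TGF-β3, was the other gene of this list, with a blocked log2 fold change of −0.28 (edgeR adjusted p = 0.0102), which did not pass without replicate 2 (0.138). Thbs1, whose product thrombospondin-1 can release active TGF-β, was the most abundant of the list with 527 to 787 TPM in the control and 536 to 801 TPM in the cold libraries, and its blocked log2 fold change, 0.11, had an adjusted p of 0.0701 in edgeR (0.022 without replicate 4).

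In the other lists on the activin and TGF-β side, few genes passed. Of 9 extracellular antagonists and co-receptors 0 passed with the block (1 was higher at an unadjusted edgeR p under 0.05), and the most abundant, the matrix proteoglycan Bgn, had 226 to 355 TPM in the control and 219 to 329 TPM in the cold libraries. Tgfbr2, the type II receptor of TGF-β, stood at 29.2 to 42.3 TPM in the control and 34.02 to 46.4 TPM in the cold libraries, with a blocked log2 fold change of 0.11 (edgeR adjusted p = 0.194). Of 20 intracellular transducers and inhibitors, Smad2, Smad3 and Smad4 among them, 0 passed with the block (7 were higher at an unadjusted edgeR p under 0.05, as were 1061 of all 12506 genes), and their unblocked log2 fold changes lay between −0.40 and 0.20. Fkbp1a, which binds the type I receptors, was the most abundant of these, with 690 to 810 TPM in the control and 687 to 805 TPM in the cold libraries.

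Of 17 response genes of TGF-β and activin, 3 fell with the block and 0 rose, against 4.07% and 1.26% of all genes. Acta2, smooth muscle actin, which differentiating myoblasts also make, stood at 1950, 1779, 1125 and 1249 TPM in control and 1180, 1258, 961 and 987 TPM in cold replicates 1 to 4 (blocked log2 fold change −0.46, edgeR adjusted p = 2.68e-05). Cdkn1a, the cell cycle inhibitor p21, which also rises as myoblasts leave the cycle, stood at 643 to 829 TPM in the control and 534 to 599 TPM in the cold libraries (−0.39, edgeR adjusted p = 6.92e-05). For Fn1, fibronectin, the blocked log2 fold change was −0.12 (edgeR adjusted p = 0.0295), which did not pass without replicate 1 (0.101) or without replicate 2 (0.219). The differences of Acta2 and Cdkn1a lay beside the lower myocyte markers in the same libraries, and the part of those markers was not tested.

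In the BMP branch, a neighbouring pathway with its own ligands and SMADs, 2 of 27 tested genes fell with the block and 0 rose, against 4.07% and 1.26% of all genes. Hjv, hemojuvelin, a BMP co-receptor made in skeletal muscle, stood at 6.82, 7.05, 3.34 and 4.00 TPM in control and 3.06, 3.31, 2.21 and 2.15 TPM in cold replicates 1 to 4. All cold values lay below all control values, as for 2.41% of all genes. The blocked log2 fold change of Hjv was −0.995 (edgeR adjusted p = 3.66e-05), just short of the DEG threshold. Chrd, chordin, a secreted BMP antagonist, had 12.6 to 15.7 TPM in the control and 8.65 to 10.6 TPM in the cold libraries, also without overlap (blocked log2 fold change −0.60, edgeR adjusted p = 8.56e-05). Id2, a target of BMP signalling and the most abundant gene of this list, had 537 to 616 TPM and 593 to 690 TPM, with an adjusted p of 0.0774 in edgeR with the block and 0.0371 without replicate 2.

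**Figure D5:**
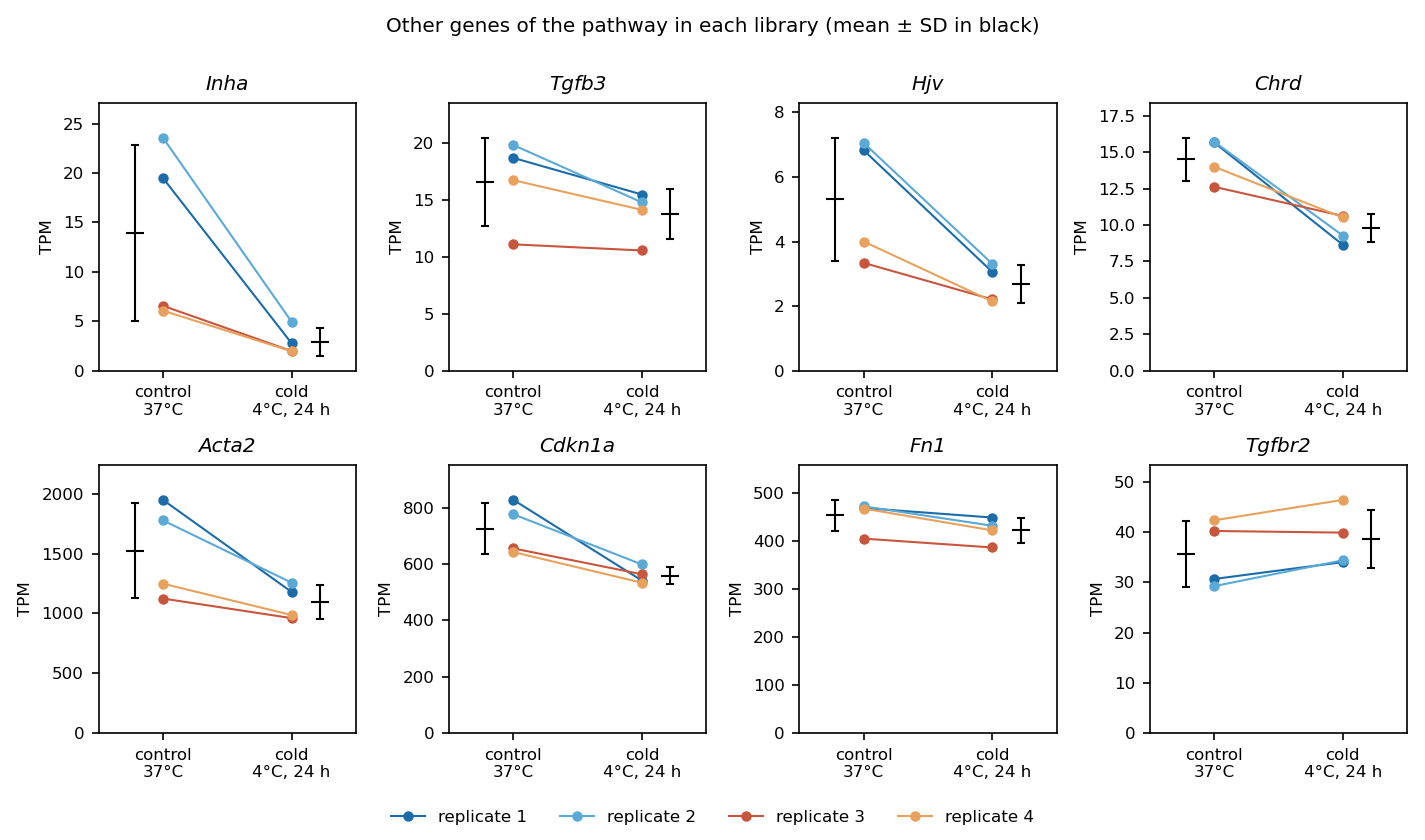
TPM (vertical axis, from 0) of 8 other genes of the pathway in the control and cold libraries, with a line joining libraries of the same replicate number and the mean ± SD (n = 4) of each group in black. Inha, Hjv, Chrd and Cdkn1a lie lower in all 4 cold libraries than in any control library, as did 2.41% of all genes, the lines of Tgfb3, Acta2 and Fn1 slope down in each pair, and Tgfbr2 separates by replicate number.

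The genes with patterns most like each member over the 8 libraries were sought by Pearson's r of log2 CPM (counts scaled to library size) among 10486 genes, as a description only, since replicates 1 and 2 stand apart from replicates 3 and 4. For Mstn they were Jph2 (junctophilin 2, r = 0.998), Itga6 (integrin α6, 0.981) and Dysf (dysferlin, 0.975), and 58 genes had an r of at least 0.9. They were picked for their likeness to Mstn over the same 8 libraries, so a fall in the cold is not separate evidence. The log2 fold changes of these genes with the block were −0.92, −0.78 and −0.97. For Fst they were Bcl2l1, Ehd1 and Pip4k2c (0.995, 0.995 and 0.994), and 764 genes had an r of at least 0.9. Far fewer reached that r with the receptors Acvr2a (15 genes) and Acvr1b (2 genes).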

How the data were processed

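The 4 control and 4 cold RNA-seq libraries were grouped by their titles. Per the labels, the authors sequenced polyA RNA from each culture. The submitters' processing notes name HISAT and HISAT2 without a version; the counting program and the genome build are not given in the sources used here, so no coordinates are printed. The authors deposited one table with 3 values per gene and library: an expected count (estimated read count, not normalized), a TPM value scaled within the library, and a normalized count, a signal equal to the count times 1 factor per library, which was not used for tests. The member symbols matched RefSeq names, no annotated gene overlapped them, and all member counts were whole, so reads were not split with copies.

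Expected counts were rounded and fitted with edgeR 4.0.16 in R 4.3.3 (filterByExpr, TMM, quasi-likelihood F test, Benjamini-Hochberg). Standard errors were derived from the fold change and F (log2 fold change over √F). The main fit had no block. Same-numbered libraries had correlations of deviations of 0.61, 0.62, 0.65 and 0.66, each above the 0.43 to 0.59 of differing numbers within replicates 1 and 2 or within 3 and 4, so much of the likeness lies in that split. With every pair positive, the numbers, taken from the titles, were treated as pairs, and the replicate block was fitted beside it. What a replicate number marks is not stated, so p-values measure the spread between these libraries, which may be partly technical. Depth was 16530747 to 18533801 counts per library, and the reads carry no molecular identifiers. The scripts were tested on simulated data.

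Alternatives were DESeq2 1.42.0, RLE factors, library totals, other filters, limma 3.58.1 on log2 TPM with pseudocounts of 0.1, 1 and 0.01, leaving out each library, and replicates 1 and 2 or 3 and 4 alone. The blocked fit without each pair, or with other scalings, was added after seeing the data. The members and gene lists were chosen with earlier results of these data known. Named genes are all members, the genes of each list past an adjusted p of 0.05 in either edgeR fit, the most abundant gene of each list, and the 3 genes most like a member. Other genes named in a list's account are examples.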

Additional observations from a re-analysis of the deposited data

Results flagged for a closer look

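Of 44 groups of 4 libraries examined for a value far from the other 3, 2 had one, and chance gives about 1 in 20. Bgn stood at 355 TPM in control replicate 4, against 226 to 235 TPM in the other control libraries. Fn1 stood at 405 TPM in control replicate 3, against 467 to 472 TPM in the others. No member of myostatin and activin signalling had such a library.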

How the results depend on the processing

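Mstn was lower in the cold under each of the 19 alternatives without a block (log2 fold changes −2.39 to −1.24, adjusted p 1.94e-10 to 0.208) and in each of the 8 fits with it, DESeq2 and the added ones included (−2.04 to −1.47, adjusted p at most 0.000287). Its call depended on the fit: 1 member was called, with and without the fold threshold, with the replicate block, by DESeq2, by DESeq2 with the block and without a filter beyond 1 count, and between 0 and 1 on leaving out a library (1 without control replicate 3, where its adjusted p was 0.0186). In that order, 0.848%, 0.472%, 0.685%, 0.0901% and, without control replicate 3, 0.270% of all genes were called. By the adjusted p alone, 5.33%, 0.945%, 2.65%, 0.150% and 0.365% passed. In replicates 1 and 2 alone, where 1.47% of all genes were called and 11.6% passed the adjusted p alone, 1 member was called and 4 passed, namely Mstn, Inhba (0.25, adjusted p = 0.00578), Acvr2a (0.25, 0.0316) and Smad7 (0.31, 0.0155), and in replicates 3 and 4 alone 0 did (Mstn −1.24, 0.11), against 0.222% and 0.397% of all genes. The blocked fit without 1 pair passed 1 to 2 members, the 2 being Mstn and Inhba without replicate 4, where 7.44% of all genes passed.

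Of the 90 other pathway genes, 1 was called with the block, by DESeq2, by DESeq2 with the block and in replicates 3 and 4 alone, and 4 were called in replicates 1 and 2 alone. The shares of all genes called in these fits were, in that order, 0.848%, 0.472%, 0.685%, 0.222% and 1.47%. At an adjusted p of 0.05 alone, 7 passed with the block, 2 by DESeq2, 5 by DESeq2 with the block, 24 in replicates 1 and 2 alone, 1 in replicates 3 and 4 alone, and 0 to 1 on leaving out a library (1, Chrd, without control replicate 3). Over all genes, 5.33% passed with the block, 0.945% by DESeq2, 2.65% by DESeq2 with the block, 11.6% in replicates 1 and 2 alone, 0.397% in replicates 3 and 4 alone and 0 to 46 genes on leaving out a library.

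Small differences changed sign. On leaving out a library, the unblocked log2 fold change spanned −0.17 to 0.0096 for Gdf11, −0.12 to 0.23 for Fst (−0.067, −0.079, −0.084 and −0.12 without control 1, control 2, cold 3 and cold 4), −0.29 to 0.15 for Fstl3 (0.15, 0.052 and 0.068 without control 4, cold 1 and cold 2), −0.15 to 0.021 for Acvr1b (0.021 and 0.0013 without control 1 and cold 1), −0.04 to 0.37 for Smad7 and −0.19 to 0.11 for Bgn (0.11, 0.0061 and 0.019 without control 4, cold 2 and cold 3). The blocked value of Acvr1b spanned −0.18 to 0.094 and was positive without replicate 1. In replicates 1 and 2 alone Fst was at −0.021. In replicates 3 and 4 alone Fstl3 was at 0.016, Acvr2a at −0.048, Acvr1b at 0.18 and Smad7 at −0.022. None of these passed the test, and the cause was not tested. The block changed no other call of a named gene than those given. The term of the replicate number passed for 5 members with RLE factors (35.5% of all genes) and for 6 of 10 without a filter (30.0%). Acvr2b, with 20 counts at most, was tested in 15 alternatives with other filters or fewer libraries (log2 fold changes −0.83 to −0.12, lowest adjusted p 0.4997).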
